A study of Homo sapiens with 16 samples.

Results

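The nuclear genes followed here were 10 in number: SLIRP, its protein partner LRPPRC, SRA1, whose RNA SLIRP binds, and 7 genes whose proteins make, mature or remove mitochondrial RNA (TFAM, POLRMT, TFB2M, MTPAP, FASTKD2, PNPT1 and SUPV3L1). They were listed by name and role, with earlier results of these data known, and all 10 were found among the 20531 entries of the count table, SLIRP under its older symbol C14orf156. LNCaP, an androgen-sensitive prostate cancer line, received 40 nM of nonsense siRNA (NS) or of a siRNA pool directed at SLIRP. After 24 h the medium was replaced by serum-free medium with ethanol vehicle (Veh) or with 1 nM dihydrotestosterone (DHT), an androgen, and RNA was taken 24 h later. Control cells gave the groups NS-Veh and NS-1nM DHT and depleted cells SLIRP-Veh and SLIRP-1nM DHT, with 4 libraries in each of these 4 groups, all from the same line, and every library came from transfected cells, with no untransfected group used here.

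Mitochondria carry a small circular genome that is read in long transcripts from both strands. TFAM packs and bends this DNA, POLRMT is the RNA polymerase and TFB2M opens the promoter for it. The transcripts are cut apart, MTPAP adds the poly(A) tails, and LRPPRC, an RNA chaperone of the pentatricopeptide repeat family, forms a complex with SLIRP, a small RNA-binding protein, that keeps mitochondrial mRNAs stable and adenylated. FASTKD2 works on mitochondrial rRNA in the RNA granules, and SUPV3L1, a helicase, unwinds RNA for PNPT1, the polynucleotide phosphorylase that degrades it. SLIRP was also described as a nuclear repressor that binds the steroid receptor RNA activator, the RNA made from SRA1. The mRNAs measured here are those of the nuclear genes, and mitochondrially encoded transcripts were not analysed here.

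The promoters of several of these genes share letters from the binding motif of NRF1, a transcription factor best known for activating nuclear genes of mitochondrial function. The letters GCANGCGC, with N for any base and both strands searched, occurred in the promoters of 5 of the 10 genes (TFAM, POLRMT, TFB2M, MTPAP and SUPV3L1). In the RefSeq table for GRCh38.p14 they occurred in 11.7% of all 35116 promoters of the same 300 bases (250 bases before to 50 after the start). All 10 genes were found there, with 12 promoters, so the first count is of genes and the second share is of promoters. The letters contain CG, and the 12 promoters held a median of 22 CpG against 14 over all promoters. The part of this in the matches was not tested. The stretches are shown because 3 of the 5 belong to the genes of the transcription machinery itself; each is written along the strand of its gene, with the matched letters in capitals and up to 20 bases on either side.
TFAM, chr10:58385327-58385374, plus strand: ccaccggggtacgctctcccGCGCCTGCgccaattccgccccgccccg
TFB2M, chr1:246566249-246566296, minus strand: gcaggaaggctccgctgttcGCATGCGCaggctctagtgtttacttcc
POLRMT, chr19:633526-633581, minus strand: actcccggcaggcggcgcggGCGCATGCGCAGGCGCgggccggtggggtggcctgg
MTPAP, chr10:30349319-30349366, minus strand: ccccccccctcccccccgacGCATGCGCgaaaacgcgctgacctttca
SUPV3L1, chr10:69180195-69180242, plus strand: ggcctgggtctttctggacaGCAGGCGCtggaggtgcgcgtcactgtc
The match began 63 bases before the start of TFAM, 15 before that of TFB2M, 68 before that of MTPAP and 19 before that of SUPV3L1. POLRMT held 3 overlapping matches from base -24 on and 1 more at base -132. A match of letters is a description and not a bound site, and no binding was measured in these libraries.

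Between 436353 and 1689708 counts per library were assigned to genes, and the 2 libraries of fewest counts were both NS-Veh (replicates 1 and 2). All 9 luminal prostate markers, KLK3 among them, were detected, whereas KRT5 and TP63 (basal cells), DCN (fibroblasts), PTPRC and CD3E (leukocytes) and PECAM1 and CDH5 (endothelium) had 0 counts in all 16 libraries. Other markers of these cells were detected at low levels: COL1A1 with 216 counts over all libraries, VWF with 151, CD68 with 46, KRT14 with 4, LUM with 4 and COL1A2 with 2, each at 21.9 CPM or less in every library. The summed luminal markers lay between 4065 and 4688 CPM in the 8 NS libraries and between 2972 and 3626 CPM in the 8 SLIRP siRNA libraries, without overlap. CPM is the usual unit of level per library, the estimated read count of a gene scaled by the TMM-normalised library size. The part of this shift in the values below was not tested.

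SLIRP mRNA was lowered by its siRNA in every library. Its levels in NS-Veh were 58.0, 57.9, 63.4 and 57.8 CPM in replicates 1 to 4, and in NS-1nM DHT 45.1, 56.3, 56.6 and 61.4 CPM. In SLIRP-Veh they were 2.96, 7.83, 4.04 and 1.75 CPM, and in SLIRP-1nM DHT 2.61, 1.41, 1.94 and 8.04 CPM. All 8 SLIRP siRNA libraries lay below all 8 NS libraries, and they rested on only 1 to 10 counts each. The mean of the SLIRP siRNA libraries, 3.82 ± 2.67 CPM (SD, n = 8), was 0.067 of the NS mean of 57.1 ± 5.43 CPM (SD, n = 8). In edgeR's quasi-likelihood test the log2 fold change was -3.89 with an SE of 0.21 and an adjusted p (FDR, Benjamini-Hochberg over all genes tested) of 1.38e-15. In a bulk library, less RNA per cell cannot be told apart from fewer cells that carry it. The single library with 1 count, SLIRP-1nM DHT replicate 2, has an exact 95% Clopper-Pearson interval of 0.0357 to 7.86 CPM, and the highest of these libraries, with 10 counts, one of 3.86 to 14.8 CPM. These intervals cover counting error only.

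SLIRP lies on chr14:78174414-78227447 of hg19, plus strand. Its annotated exons share 271 of 2631 bases with a long noncoding RNA gene on the same strand, C14orf178, and 118 with SNW1 on the opposite strand, and pseudogenes named SLIRPP1 and SLIRPP2 are annotated, so a part of its few remaining counts could not be assigned to SLIRP with certainty. The RefSeq table gives SLIRP 2 start sites 32 bases apart. Both promoters hold 1 match to CCGGAAG, the core letters bound by GABPA and other ETS factors (both strands, 10.3% of all promoters), in capitals in the promoter of the first start, which is printed because SLIRP is the gene the siRNA was directed at.
SLIRP, chr14:77707853-77708152 of GRCh38.p14, plus strand: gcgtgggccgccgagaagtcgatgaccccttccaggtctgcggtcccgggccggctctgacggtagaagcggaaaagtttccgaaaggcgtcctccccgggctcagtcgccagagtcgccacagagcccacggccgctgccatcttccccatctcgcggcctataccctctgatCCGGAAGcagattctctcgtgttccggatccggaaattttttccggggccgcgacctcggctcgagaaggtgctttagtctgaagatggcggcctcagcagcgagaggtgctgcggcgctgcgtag
Besides SLIRP, only POLRMT among the 10 genes had these letters in its promoter, 93 bases before the start.

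**Figure D1:**
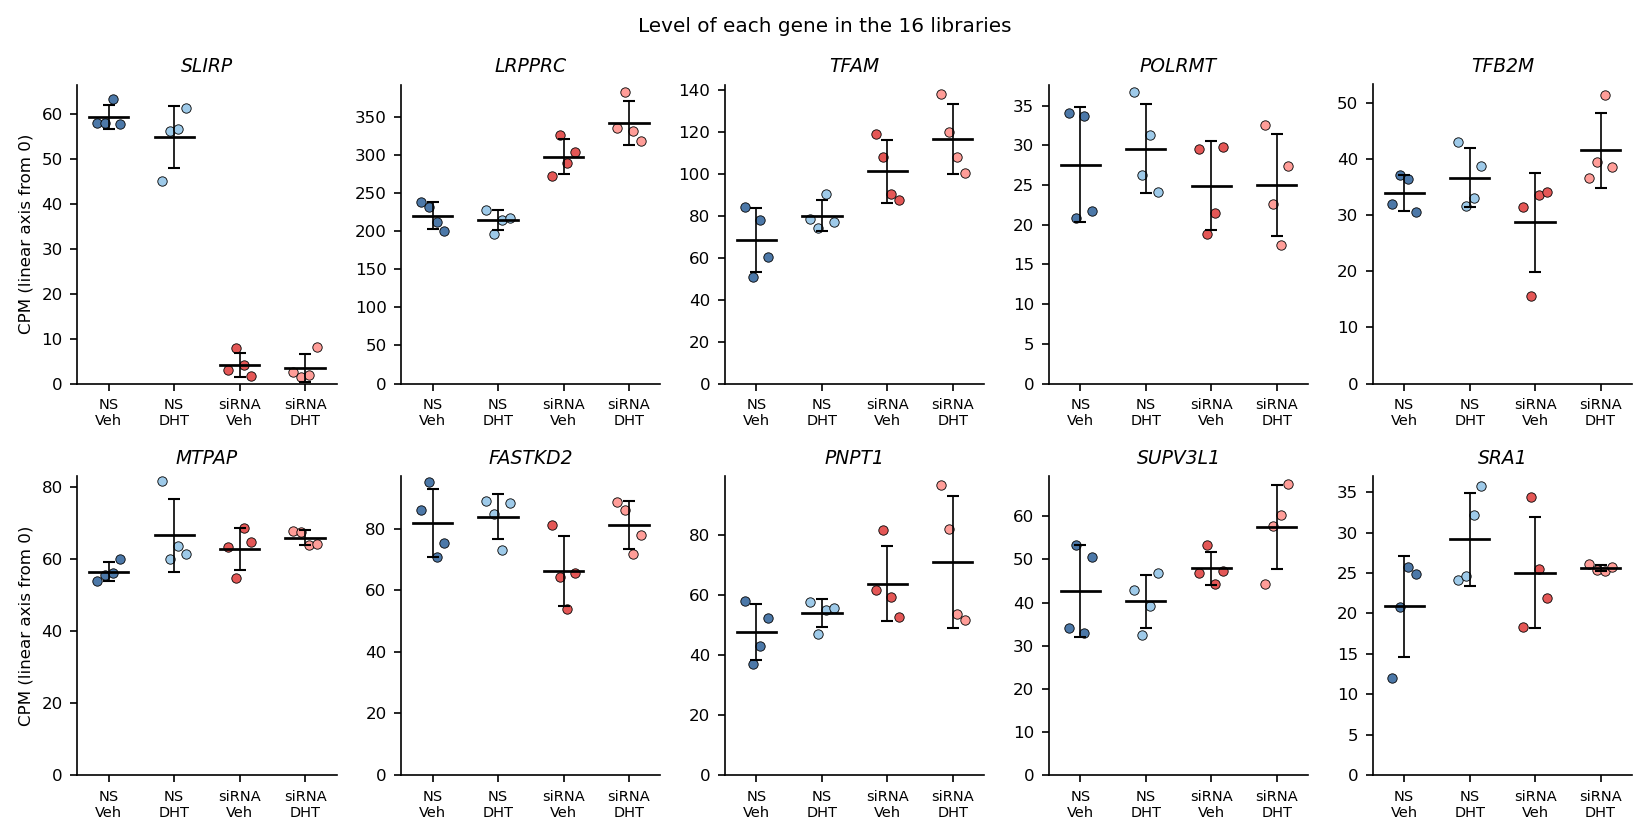
Level of each of the 10 genes in the 16 libraries, in CPM on a linear axis from 0. Each point is 1 library, from replicate 1 at the left to replicate 4 at the right of its group, and lines and bars give the mean and SD of 4 libraries. SLIRP falls to 8.04 CPM or less in all siRNA libraries, LRPPRC lies higher in all 8 of them, and TFAM in 6 of 8.

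LRPPRC, the partner of SLIRP, rose with SLIRP siRNA. It was at 238, 232, 212 and 201 CPM in NS-Veh and at 229, 197, 215 and 217 CPM in NS-1nM DHT. In SLIRP-Veh it was at 272, 327, 289 and 304 CPM, and in SLIRP-1nM DHT at 335, 384, 332 and 319 CPM. The lowest siRNA library lay above the highest NS library, and the 2 NS groups overlapped. The fold change over the 16 libraries was 1.47 (95% interval 1.33 to 1.63, log2 0.56, SE 0.071, FDR 1.3e-07). Such separation of 8 from 8 libraries was found in 15.2% of the 10167 genes tested, and 2 of the 10 genes, SLIRP and LRPPRC, showed it.

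The rise of LRPPRC passed the test in each medium. In vehicle the means were 221 ± 17.3 and 298 ± 23.3 CPM (SD, n = 4 each), 1.36-fold, with an FDR of 0.000203. In DHT they were 214 ± 13.2 and 342 ± 28.4 CPM, 1.59-fold, with an FDR of 1.04e-07. The difference of these log2 changes, 0.22 with a 95% interval from -0.03 to 0.48, had an unadjusted p of 0.0864 and an FDR of 1 in edgeR's interaction contrast. The rise was therefore not shown to be larger with androgen.

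LRPPRC lies on chr2:44113363-44223365 of hg19, minus strand, and 139 bases of its exons overlap a long noncoding RNA on the opposite strand. Its promoter is printed beside that of its partner because its mRNA moved the opposite way, and neither GCANGCGC nor CCGGAAG occurs in it, so no letter is in capitals.
LRPPRC, chr2:43995940-43996239 of GRCh38.p14, minus strand: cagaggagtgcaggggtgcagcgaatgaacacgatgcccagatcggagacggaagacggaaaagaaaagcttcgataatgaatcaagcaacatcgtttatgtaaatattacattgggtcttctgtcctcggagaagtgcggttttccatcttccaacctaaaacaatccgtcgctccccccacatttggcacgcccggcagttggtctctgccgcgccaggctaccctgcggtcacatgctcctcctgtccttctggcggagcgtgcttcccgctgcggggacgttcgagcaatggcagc
Among 2698 genes with a mean of at least 100 counts, the patterns most like that of LRPPRC over the 16 libraries belonged to SLMO2, SFRS1 and PTCD3. Their root-mean-square differences from it in centred log2 CPM were 0.0866, 0.092 and 0.0983. PTCD3 encodes another pentatricopeptide repeat protein, found on the mitochondrial ribosome, and this measure shares the libraries and the siRNA contrast with the test.

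Of the 3 genes of the mitochondrial transcription machinery, TFAM rose and POLRMT and TFB2M did not pass the test. TFAM was at 84.1, 51.0, 78 and 60.2 CPM in NS-Veh and at 78.6, 74.0, 90.6 and 76.8 CPM in NS-1nM DHT. It was at 119, 108, 90.1 and 87.7 CPM in SLIRP-Veh and at 138, 120, 108 and 101 CPM in SLIRP-1nM DHT. Of the 8 siRNA libraries, 6 lay above every NS library, and SLIRP-Veh replicates 3 and 4 lay just under the highest NS library. The fold change was 1.44 (95% interval 1.25 to 1.67, log2 0.53, SE 0.10, FDR 0.000101). TFAM lies on chr10:60145105-60158980 of hg19, plus strand. The pseudogene TFAMP1 has an entry of its own, with 33 counts in all 16 libraries together, and TFAMP2 is annotated too, so reads shared with these copies leave a small uncertainty.

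The TFAM rise was 1.48-fold in vehicle (FDR 0.00241) and 1.44-fold in DHT (FDR 0.00185). Single libraries decided these calls. In vehicle the FDR was 0.0105 without NS-Veh replicate 2, 0.0185 without NS-Veh replicate 4 and 0.0383 without SLIRP-Veh replicate 1, and in DHT it was 0.0124 without SLIRP-1nM DHT replicate 1. Over the 16 libraries it passed whichever library was left out, with an FDR of at most 0.000345.

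POLRMT, on chr19:617221-633537 of hg19, ranged from 20.9 to 36.7 CPM with a median of 28.8 in the NS libraries and from 17.5 to 32.6 CPM with a median of 25 in the siRNA libraries. Its log2 fold change was -0.17 (95% interval -0.49 to 0.15, FDR 0.394). TFB2M, on chr1:246703863-246729563, ranged from 30.5 to 43.0 CPM in the NS libraries and from 15.7 to 51.5 CPM in the siRNA libraries, whose lowest and highest values both lay outside the NS range. Its log2 fold change was 0.01 (95% interval -0.29 to 0.31, FDR 0.963). For these genes the intervals leave out a change as large as the 1.44-fold rise of TFAM, which is 0.53 on the log2 scale. The difference between the genes was not tested.

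MTPAP and FASTKD2, which act on the RNA after it is made, did not pass the test, and their groups overlapped. MTPAP, on chr10:30598730-30663377 of hg19, ranged from 54.0 to 81.8 CPM with a median of 60.2 in the NS libraries and from 54.8 to 68.6 CPM with a median of 64.6 in the siRNA libraries. Its log2 fold change was 0.05 (95% interval -0.14 to 0.25, FDR 0.688). A long noncoding RNA on the opposite strand covers 1120 of its 8341 exon bases, and the pseudogene GOLGA2P6 covers 1626 on the same strand, so its counts are uncertain to that extent. FASTKD2, on chr2:207630081-207660913, ranged from 70.7 to 95 CPM with a median of 85.4 in the NS libraries. In the siRNA libraries it ranged from 53.8 to 88.7 CPM with a median of 74.9, and 3 of 8 lay below every NS library. Its log2 fold change was -0.14 (95% interval -0.35 to 0.06, FDR 0.254).

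The genes of the RNA-degrading complex, PNPT1 and SUPV3L1, had positive log2 fold changes of similar size that did not pass the FDR of 0.01. PNPT1 was at 58.0, 37.1, 42.9 and 52.2 CPM in NS-Veh and at 57.7, 47.0, 54.9 and 55.6 CPM in NS-1nM DHT. In SLIRP-Veh it was at 61.6, 81.4, 59.2 and 52.6 CPM, and in SLIRP-1nM DHT at 96.5, 81.8, 53.4 and 51.5 CPM. Of the 8 siRNA libraries, 5 lay above every NS library, while SLIRP-Veh replicate 4 and SLIRP-1nM DHT replicates 3 and 4 lay within the NS range. The log2 fold change of PNPT1 was 0.36 (95% interval 0.09 to 0.62, SE 0.13, FDR 0.0244).

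PNPT1, on chr2:55861196-55920998 of hg19, is known to be induced by interferon, and genes stimulated by interferon fell in the same libraries. Of 40 such genes listed, 25 were tested over the 16 libraries, 21 were lower with SLIRP siRNA and 1 was higher (84% and 4%, against 17.4% and 17.8% of all genes tested), with a median log2 fold change of -2.26 against -0.01 over all genes tested. Among those with a mean of at least 30 counts the largest changes were those of 3 antiviral genes. OASL fell by 4.92, IFIT1 by 4.29 and IFI6 by 3.74 on the log2 scale, with an FDR of at most 6.32e-15. Their means in the siRNA libraries were 2.62 ± 1.93, 5.55 ± 1.54 and 15.98 ± 7.73 CPM (SD, n = 8). The means of OASL and IFIT1 lie within the range of the floor, 3 counts or 1.78 to 6.95 CPM. The sizes of these 2 falls are therefore uncertain. The filter also kept genes with enough counts in either siRNA group alone. RSAD2, for example, averaged 32.9 CPM in NS and 1.22 CPM with SLIRP siRNA. It was kept through its NS level and could be called only as lower, and the share of 84% includes such genes. With at least 10 counts in every library, 10 listed genes were tested, of which 7 were lower and 1 was higher. Of all 6934 genes tested under that filter, 1403 were lower and 1376 higher. The summed level of the 40 genes lay between 1729 and 2539 CPM in the NS libraries and between 710 and 896 CPM in the siRNA libraries. The part of this shift in the PNPT1 values was not tested.

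**Figure D2:**
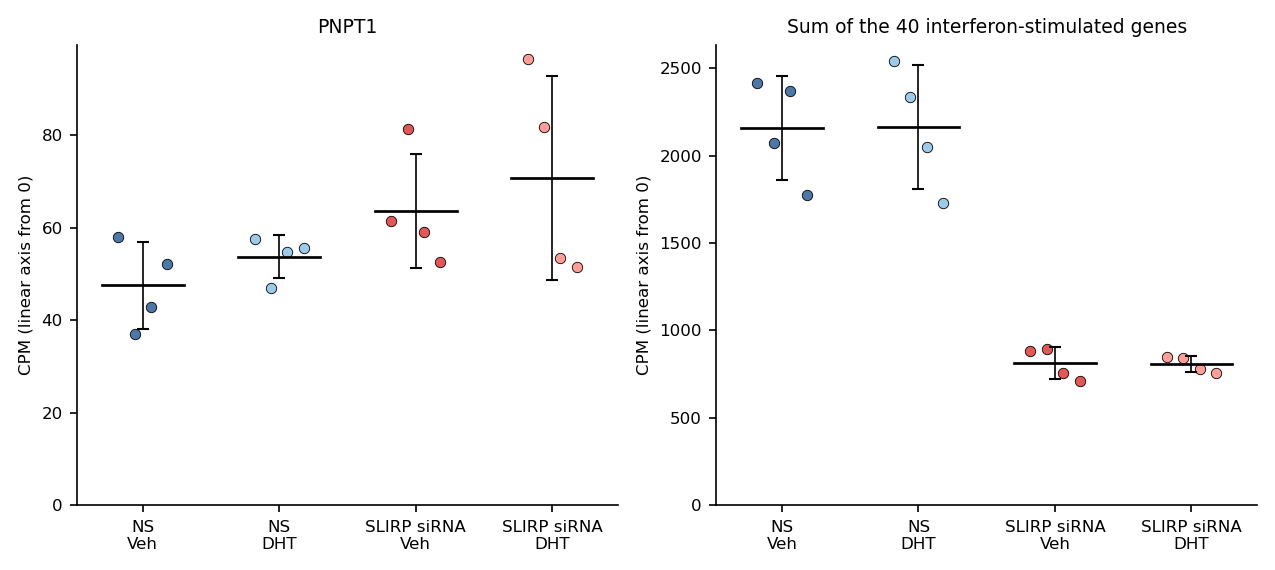
PNPT1 (left) and the sum of 40 interferon-stimulated genes (right) in each of the 16 libraries, in CPM on linear axes from 0. Points are libraries, in replicate order within a group, and lines and bars give the mean and SD of 4 libraries. The sum is at most 896 CPM in every siRNA library and at least 1729 CPM in every NS library, whereas the PNPT1 groups overlap and 5 of 8 siRNA libraries lie above all NS libraries.

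SUPV3L1 was at 34.0, 53.3, 33.0 and 50.6 CPM in NS-Veh and at 43.0, 32.4, 39.2 and 46.8 CPM in NS-1nM DHT. It was at 46.8, 53.2, 44.4 and 47.3 CPM in SLIRP-Veh and at 44.3, 57.8, 60.2 and 67.6 CPM in SLIRP-1nM DHT. The SLIRP-1nM DHT libraries of replicates 2 to 4 were the 3 highest of all 16, and every other siRNA library lay within the NS range. The log2 fold change over 16 libraries was 0.36 (SE 0.13, FDR 0.0208). It was 0.54 in DHT (SE 0.17, FDR 0.0112) and 0.19 in vehicle (FDR 0.465), with an unadjusted p of 0.166 for the difference.

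SUPV3L1 in DHT, not called in the main fit (FDR 0.0112), sat at the threshold and turned on single libraries and on processing. It passed, with an FDR of 0.00625 without NS-1nM DHT replicate 4 and of 0.00384 without SLIRP-1nM DHT replicate 1. It also passed without any 1 NS-Veh replicate (0.0086, 0.00882, 0.00819 and 0.0086 for replicates 1 to 4) and without SLIRP-Veh replicate 2 (0.00952). With all libraries kept it passed under RLE scaling (0.00876), without a filter (0.00891) and with at least 10 counts in every library (0.00735). The highest FDR under the alternatives was 0.081. Over the 16 libraries SUPV3L1 passed only without NS-Veh replicate 4, at 0.00871. The gene lies on chr10:70939990-70968855 of hg19, plus strand.

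SRA1 did not pass the test, and its groups overlapped. It was at 12.0, 20.9, 25.8 and 24.9 CPM in NS-Veh and at 24.1, 24.7, 32.2 and 35.8 CPM in NS-1nM DHT. It was at 18.4, 34.4, 25.6 and 21.9 CPM in SLIRP-Veh and at 26.1, 25.4, 25.3 and 25.7 CPM in SLIRP-1nM DHT. All 8 siRNA libraries lay within the NS range, and the lowest value, in NS-Veh replicate 1, rested on 6 counts. The log2 fold change was -0.10 with a 95% interval from -0.44 to 0.23 (0.739- to 1.17-fold) and an FDR of 0.639. Changes of SRA1 within that interval were not excluded. The gene lies on chr5:139916925-139937262 of hg19, minus strand, where 250 of its 2821 exon bases overlap ANKHD1 on the opposite strand. Counting by strand is not stated in the sources used here, and then reads of the 2 genes cannot be told apart there.

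Of the partners of SRA RNA, 2 rose and 1 fell with SLIRP siRNA over the 16 libraries. Over all genes tested 17.8% rose and 17.4% fell, and counts this small stand near that background. Of the 6 genes listed, DDX5, which encodes an RNA helicase that binds SRA, rose by 0.38 on the log2 scale (601 ± 33.4 to 783 ± 72.6 CPM, SD, n = 8 each, FDR 6.37e-06). Its close relative DDX17 fell by 0.29 (566 ± 22.7 to 464 ± 24.1 CPM, FDR 6.05e-05). PUS3, a pseudouridine synthase that modifies SRA, rose by 0.68 (27.1 ± 6.0 to 47.4 ± 16.3 CPM, FDR 0.00207), whereas PUS1, which does the same and also modifies mitochondrial tRNA, had a log2 fold change of -0.43 (FDR 0.167). SPEN, a repressor that binds SRA, and NCOA1, the coactivator in whose complex SRA was described, did not pass (0.14, FDR 0.173, and -0.03, FDR 0.774). The patterns most like that of SRA1 were those of ICMT, ZBTB33 and CYB5A, with root-mean-square differences of 0.221, 0.225 and 0.232 log2 units. These differences are larger than those found for LRPPRC, and SRA1 averaged 26.2 counts per library where LRPPRC averaged 269.

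Of the 10 genes, 2 rose and 1 fell with SLIRP siRNA over the 16 libraries, while 17.8% of the 10167 genes tested rose and 17.4% fell. The fall is that of the gene the siRNA was directed at. The median log2 fold change was 0.03 for the 10 genes and -0.01 for all genes tested. The same 3 genes passed in vehicle, where 11.8% of 10684 genes rose and 9.95% fell, and in DHT, where 12.8% rose and 11.6% fell. These shares are near those of the background, and the comparisons share libraries.

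**Figure D3:**
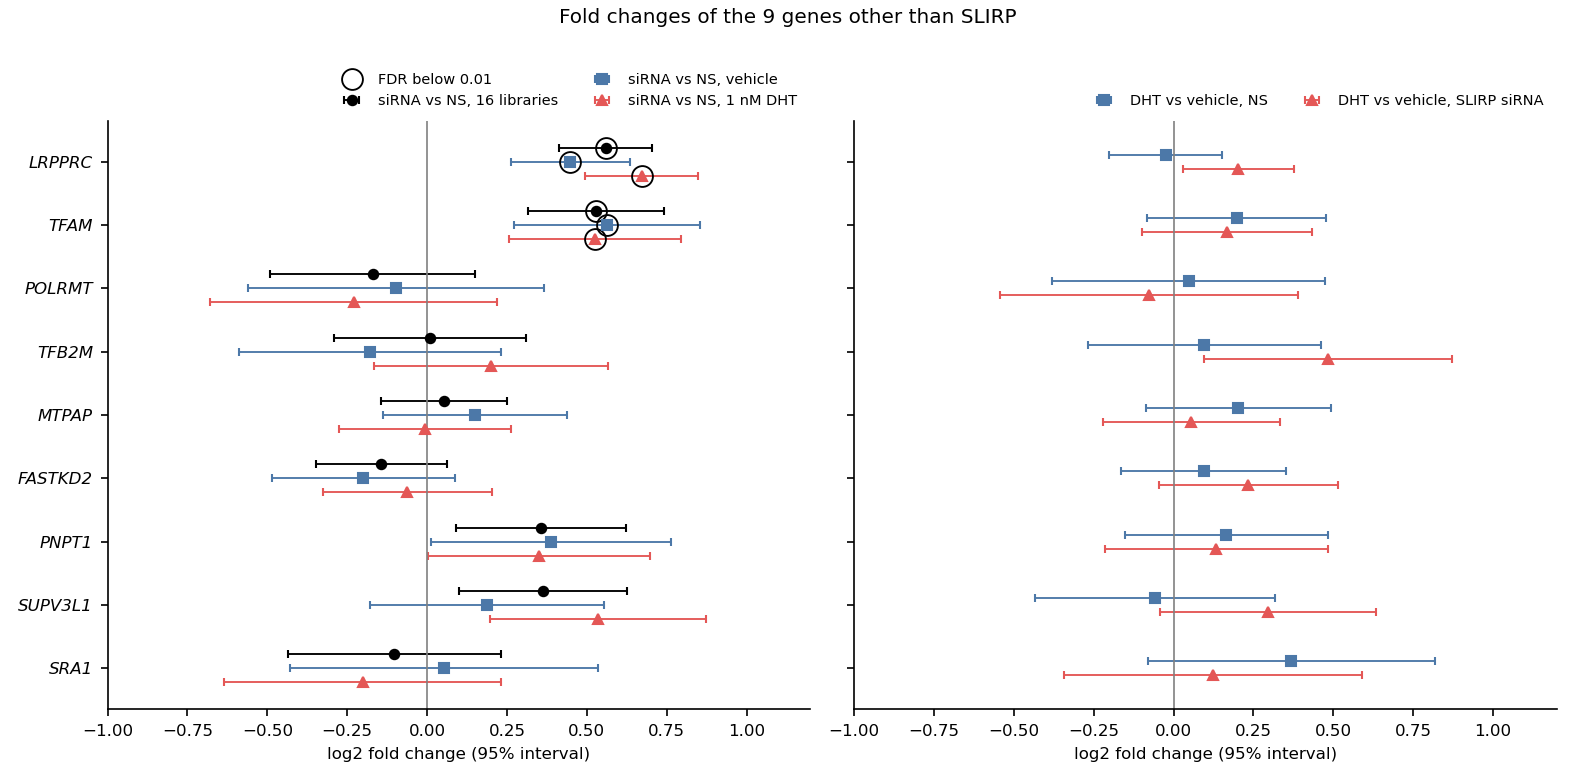
Log2 fold changes with 95% intervals of the 9 genes other than SLIRP, for SLIRP siRNA against NS (left, over 16 libraries and in each medium) and for DHT against vehicle (right, within each siRNA). Circles mark an FDR below 0.01: LRPPRC and TFAM carry one in all 3 siRNA comparisons, and no gene carries one for DHT.

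None of the 10 genes passed the test for 1 nM DHT. In the NS libraries 0 of 10 passed in edgeR, against 1.31% of 10367 genes tested. An unadjusted p under 0.05 was found for 0 of 10, against 1478 of the 10367. In the siRNA libraries 0 of 10 passed, against 1.17% of 10684 genes. There 2 of 10 had an unadjusted p under 0.05, against 1663 of the 10684. DESeq2 and limma also called 0 of 10 in both comparisons. The 2 were TFB2M and LRPPRC. TFB2M was at 31.4, 15.7, 33.6 and 34.2 CPM in SLIRP-Veh and at 36.5, 39.5, 51.5 and 38.6 CPM in SLIRP-1nM DHT. Its log2 fold change was 0.48 (unadjusted p 0.0162, FDR 0.188), and the lowest value, in SLIRP-Veh replicate 2, rested on 10 counts. For LRPPRC the change was 0.20 (unadjusted p 0.0239, FDR 0.228).

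In control cells the largest DHT change was that of SRA1, whose mean was 20.9 ± 6.29 CPM in NS-Veh and 29.2 ± 5.76 CPM in NS-1nM DHT (SD, n = 4 each). Its log2 fold change was 0.37 with a 95% interval from -0.08 to 0.82 and an FDR of 0.482, and the groups overlapped. SLIRP itself was at 59.3 ± 2.75 and 54.9 ± 6.92 CPM in the same groups, 0.92-fold (95% interval 0.752 to 1.13, FDR 0.784). No difference in DHT response between the siRNAs passed for the 10 genes in edgeR's interaction contrast, where none had an unadjusted p under 0.05. Over all genes, 0% of 10684 passed, 388 had an unadjusted p under 0.05, and DESeq2 and limma called 0 genes too.

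Levels of the genes can be compared with each other only per length. Over the MANE Select transcript, the standard isoform of each gene, the mean levels in NS-Veh were 158 ± 7.31 CPM per kb for SLIRP (SD, n = 4) and 33.4 ± 2.62 CPM per kb for LRPPRC. The other 8 genes lay between 19.1 ± 1.80 CPM per kb for TFB2M and 7.31 ± 1.93 CPM per kb for POLRMT, in the order TFB2M, SUPV3L1, SRA1, TFAM, FASTKD2, PNPT1, MTPAP and POLRMT. Neighbours in this order overlapped within their SD, except MTPAP (10.2 ± 0.47 CPM per kb) and POLRMT. In SLIRP-Veh, SLIRP was at 11 ± 6.99 CPM per kb and LRPPRC, at 45.2 ± 3.53 CPM per kb, stood first.

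The order depends on the length used. Over all annotated exons, SLIRP was still first at 22.5 ± 1.04 CPM per kb in NS-Veh and POLRMT last at 5.45 ± 1.44, but LRPPRC, with 34689 exon bases from 71 annotated transcripts, was ninth in the order at 6.36 ± 0.50 CPM per kb. TFB2M, with 1 annotated transcript of 1784 bases, had the same value by either length.

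**Figure D4:**
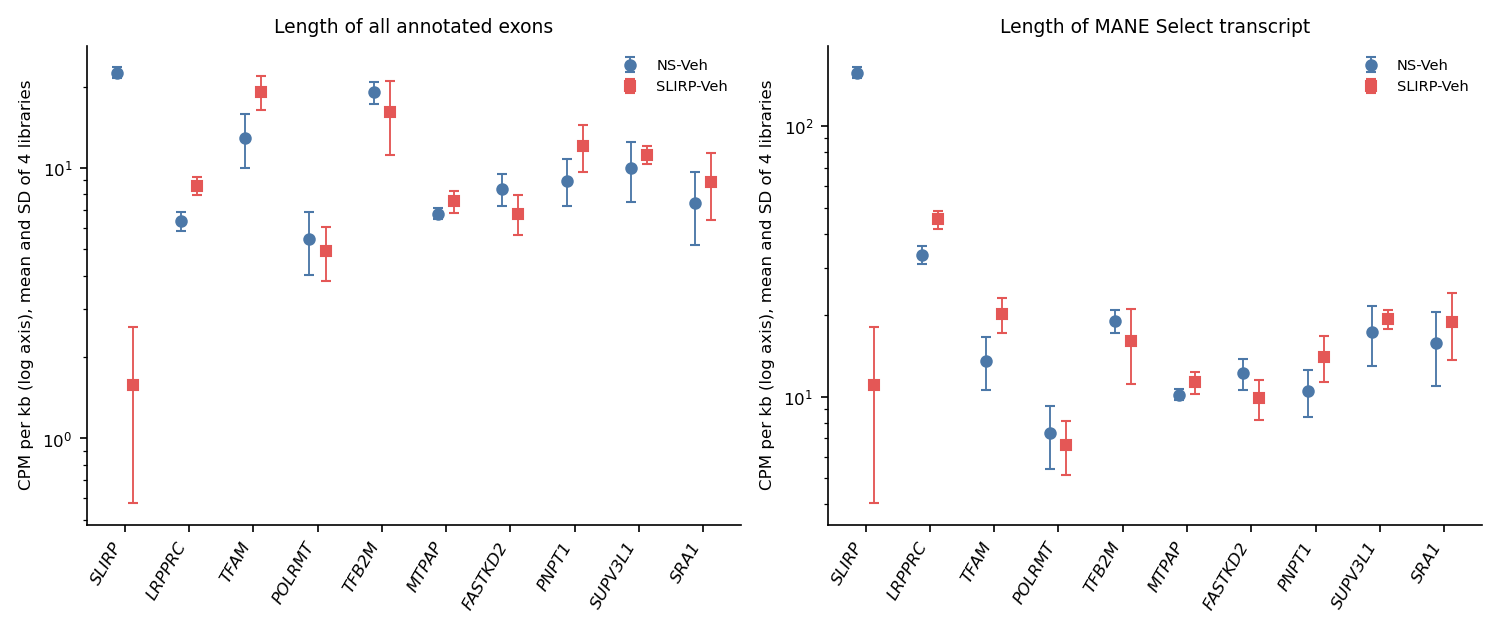
Mean level and SD of 4 libraries for each gene in NS-Veh and SLIRP-Veh, in CPM per kb on log axes, with the length of all annotated exons (left) or of the MANE Select transcript (right). SLIRP is the highest in NS-Veh on both, while LRPPRC is second on the right, at 33.4 CPM per kb, and second to last on the left, at 6.36.

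The wider machinery of mitochondrial gene expression, 56 other nuclear genes listed by role, moved in both directions. Of 50 tested over the 16 libraries, 11 were higher with SLIRP siRNA and 3 lower, that is 22% and 6%, against 17.8% and 17.4% of all genes tested. The median log2 fold change was 0.11 for the list and -0.01 for all genes.

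The 3 that fell include both called genes of RNA stability. PDE12, which encodes the exonuclease that removes poly(A) tails in mitochondria and so opposes MTPAP, fell by 1.05 on the log2 scale, from 91.1 ± 7.90 to 42.7 ± 11.9 CPM (SD, n = 8 each, FDR 1.83e-08). PTCD2, a pentatricopeptide repeat protein needed for a mitochondrial mRNA, fell by 0.50 (46.9 ± 8.38 to 32.5 ± 5.91 CPM, FDR 0.00219). GFM1, a mitochondrial elongation factor of translation, fell by 0.35 (178 ± 20.2 to 139 ± 23.2 CPM, FDR 0.00229).

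The rises included genes of every role but RNA stability. GFM2, which recycles mitochondrial ribosomes, rose by 0.88 (64.7 ± 12.0 to 123 ± 16.9 CPM, FDR 4.23e-08), so that the GFM pair moved in opposite directions. PTCD3 rose by 0.58 (103 ± 6.62 to 155 ± 13.1 CPM, FDR 2.12e-07). PPRC1, a coactivator of nuclear genes for mitochondria, rose by 0.57 (FDR 0.000299), and MRM2, which methylates mitochondrial rRNA, by 0.52 (FDR 0.00126). TRMT10C, a subunit of the mitochondrial RNase P that frees tRNAs from the long transcripts, rose by 0.53 (67.9 ± 9.24 to 100 ± 7.86 CPM, FDR 1.2e-05).

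The other 6 rises, named after their values were seen, were those of PRORP, NSUN4, SSBP1, MTERF1, TSFM and GABPA. PRORP, the nuclease subunit of the same RNase P, rose by 0.52 (46.3 ± 5.36 to 66.8 ± 11.9 CPM, FDR 0.0005), while the remaining subunit, HSD17B10, had a log2 fold change of 0.17 (FDR 0.315). GABPA, the ETS factor named above, rose by 0.39 (FDR 0.00133), and NRF1 had a log2 fold change of 0.04 (FDR 0.894).

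By role, 1 of 5 transcription genes tested, 1 of 4 of mitochondrial DNA, 2 of 5 of RNA processing, 2 of 11 of RNA modification, 3 of 11 of translation and 2 of 5 nuclear regulators rose. Of 9 genes of RNA stability and granules 0 rose and 2 fell. With 17.8% of all genes tested rising and 17.4% falling, counts this small stand near the background, and no difference between roles was tested. The relatives of FASTKD2 did not pass over the 16 libraries. FASTK had a log2 fold change of -0.39 (FDR 0.0139), FASTKD5 of 0.37 (FDR 0.0142), FASTKD3 of 0.37 (FDR 0.0934), TBRG4 of 0.21 (FDR 0.155) and FASTKD1 of -0.03 (FDR 0.904). FASTKD5 did pass in vehicle, at 0.60 (FDR 0.00761), and not in DHT, at 0.20 (FDR 0.359). TFB1M, the rRNA methyltransferase related to TFB2M, was too low for the test over 16 libraries (10.7 ± 2.69 and 6.33 ± 2.57 CPM), and its log2 fold changes were -0.63 in vehicle (FDR 0.224) and -0.71 in DHT (FDR 0.15). With DHT in the NS libraries, 0 of 51 genes of the list passed, against 1.31% of 10367 genes tested. An unadjusted p under 0.05 was found for 3 of the 51, against 1478 of the 10367.

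**Figure D5:**
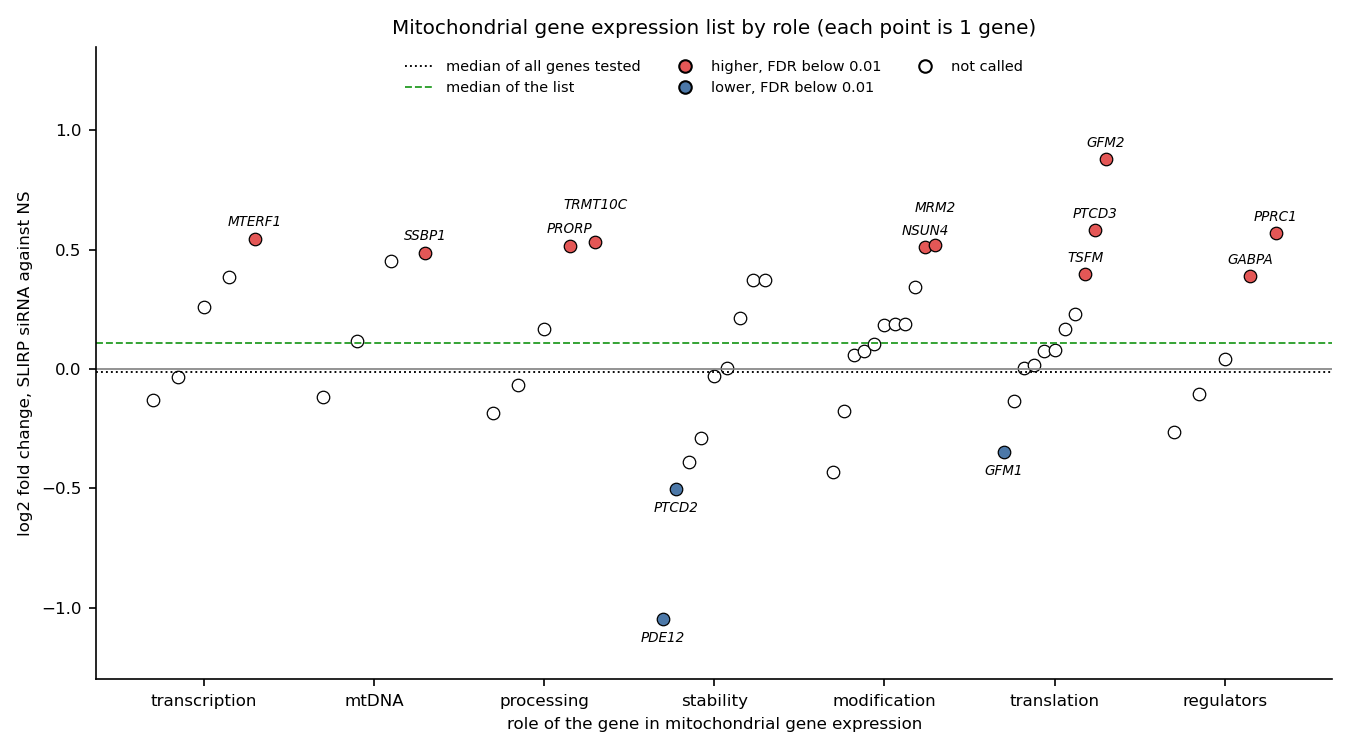
Log2 fold change with SLIRP siRNA over 16 libraries for the 50 tested genes of the mitochondrial gene expression list, ordered within 7 roles. Red points rose and blue points fell at an FDR below 0.01, the dashed line is the median of the list, 0.11, and the dotted line that of all genes tested, -0.01. PDE12 is the lowest point, at -1.05, and GFM2 the highest, at 0.88.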

How the data were processed

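LNCaP RNA was sequenced as single 50-base reads in 16 libraries, 4 per group. The authors deposited estimated counts per gene, rounded to whole numbers, for 20531 entries on hg19. Of these, 29 have no symbol and were filtered and tested like the others. The submitters' processing notes name CASAVA and RSEM. A second table deposited by the authors, of 13148 rows, holds a score on a linear scale that is proportional to the estimated counts over each library's upper quartile, within 1.01 times.

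The estimated counts were analysed with edgeR 4.0.16 in R 4.3.3 (TMM, filterByExpr and the quasi-likelihood test), and a gene was called at an FDR under 0.01 after Benjamini-Hochberg adjustment across all tested genes. The siRNAs were compared over 16 libraries without covariate, and DHT with vehicle over the 8 NS libraries. The other comparisons were contrasts of a 4-group model. CPM used TMM library sizes, and intervals of fold changes are 95% intervals from the fit. No exact test on single values was run.

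Totals were 436353 to 1689708 counts per library, and 3 counts, the floor of a library, equal 1.78 to 6.95 CPM. The 24 pairs of libraries within groups differed by more than sampling noise (chi-square over degrees of freedom 1.2 to 2.74), so none was counted as a duplicate. The paper's methods state 2 biological replicates from each of 2 experiments, and the sources used here do not say which numbers share an experiment. For replicates 1 and 2, and 3 and 4, the ratio was 1.24 and 1.46 in NS-Veh (other pairs 1.55 to 1.83). It was 1.24 and 1.34 in NS-1nM DHT (others 1.63 to 2.19) and 1.53 and 1.95 in SLIRP-1nM DHT (others 1.91 to 2.74). In SLIRP-Veh it was 2.12 and 1.2 (others 1.65 to 2.54). No fit carried the experiment, and its part in the spread was not tested. The members and the gene lists were chosen with earlier results of these data known. Genes named beside the 10 were the 5 largest called rises and falls of the mitochondrial list with a mean of at least 30 counts, the FASTK family, TFB1M, all SRA partners, the 3 largest interferon changes with the same minimum and the 3 nearest patterns to LRPPRC and SRA1. Lists were described by counts and medians, with no set test. Alternatives used DESeq2 1.42.0, limma 3.58.1 on the normalized table (log2 with a pseudocount of 1 or 0.1), UQ and RLE scaling, other filters and models, an FDR of 0.05 and leaving out each library. Leaving out the 2 libraries of fewest counts and the MANE length were chosen after seeing the data. The fits were tested on simulated data. Gene coordinates and lengths come from GENCODE 44 on hg19 and promoters from RefSeq on GRCh38.p14, with no conversion between builds. Figures were drawn with matplotlib 3.10.9. Some luminal markers are not reported here on their own but stay in the count and sum of the markers.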

Additional observations from a re-analysis of the deposited data

Results flagged for a closer look

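In 40 groups of 4 libraries (10 genes in 4 groups), 3 had a library whose gap to its neighbour exceeded Dixon's 95% critical value, where chance gives about 1 in 20. SLIRP in NS-Veh was highest at 63.42 CPM in replicate 3, next to 58.04 CPM, in a group whose whole spread is small. MTPAP in NS-1nM DHT was highest at 81.78 CPM in replicate 1, next to 63.58 CPM. TFB2M in SLIRP-Veh was lowest at 15.66 CPM in replicate 2, next to 31.37 CPM, and that library held 10 counts of the gene.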

How the results depend on the processing

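Under the alternatives, all but 2 counts of called genes in the 10 genes and the lists stayed within 1.5 times of the reported count. At an FDR of 0.05, 5 of the 10 genes passed over the 16 libraries (PNPT1 and SUPV3L1 added). With at least 10 counts in every library 8 interferon-stimulated genes passed, of 10 then tested, beside 2779 of all 6934 genes. The share of all genes is not given here for an FDR of 0.05 or with 1 library left out. The counts under these settings are therefore not a result about the listed genes. Leaving out 1 library gave 3 to 4 of the 10 genes over the 16 libraries, 2 to 3 in vehicle, 3 to 4 in DHT and 0 to 0 for DHT in NS, for DHT in SLIRP siRNA and for the difference between siRNAs. It gave 12 to 16 genes of the mitochondrial list, 21 to 26 of the interferon list and 3 to 3 SRA partners with SLIRP siRNA, and 0 to 0 for each list with DHT in NS. Without the 2 libraries of fewest counts, 3, 3 and 4 of the 10 genes passed over 16 libraries, in vehicle and in DHT (SUPV3L1 added), and 12 of the mitochondrial list. In the same 3 comparisons 3401 of 10363, 1727 of 11015 and 2623 of 11015 genes passed over all genes. In DHT, limma on the normalized table gave 2, since TFAM had an FDR of 0.0232 or, with a pseudocount of 0.1, of 0.0261.

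Replicate numbers were not taken to pair the libraries: the correlations of deviations between same-numbered libraries were all above 0 but weak, averaged 0.0287 to 0.137 over the 4 pairs of groups and exceeded 0.1 for all 4 numbers in none of them, and in no pair of groups did every library correlate best with its own number (1 to 3 of 4). With the replicate block, 3 of the 10 genes passed in each siRNA comparison and 16 of the mitochondrial list. Over all 10167 genes tested in the 16 libraries, 3955 passed with the block in place of 3581. Counts over all genes varied more for DHT. With the block, DHT in NS gave 270 calls in place of 136 and DHT in SLIRP siRNA 248 in place of 125. DHT in NS gave 27 calls with limma at a pseudocount of 1 and 69 without the 2 libraries of fewest counts.

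Log2 changes near 0 that changed sign were, with limma at a pseudocount of 1 or 0.1, those of SRA1 (0.0305 and 0.0309) and TFB2M (-0.09 and -0.0903) over the 16 libraries, of SLIRP with DHT in SLIRP siRNA (-0.392 and -0.405) and of SLIRP in the difference between siRNAs (-0.284 and -0.297). MTPAP in DHT became 0.0104 with DESeq2, 0.0117 with RLE, 0.00623 without a filter, 0.00154 with at least 10 counts, 0.00192 with only the groups compared and 0.00929 without the 2 libraries of fewest counts. Without those libraries SRA1 in vehicle was -0.117 and LRPPRC with DHT in NS 0.0417. With 1 library left out, changes of sign occurred for TFB2M over the 16 libraries (-0.0888 to 0.0894), SRA1 and POLRMT in vehicle (-0.109 to 0.213 and -0.228 to 0.101) and MTPAP in DHT (-0.0348 to 0.1). They occurred with DHT in NS for LRPPRC (-0.0744 to 0.0141), SUPV3L1 (-0.23 to 0.0954) and POLRMT (-0.106 to 0.232), and with DHT in SLIRP siRNA for SLIRP (-0.788 to 0.5), SRA1 (-0.0249 to 0.282), PNPT1 (-0.0381 to 0.298) and POLRMT (-0.196 to 0.073). In the difference between siRNAs they occurred for SLIRP (-0.666 to 0.624), PNPT1 (-0.2 to 0.134), TFAM (-0.142 to 0.113) and POLRMT (-0.316 to 0.0164). None of these values passed the test, and the cause was not tested.

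Levels per kb in NS-Veh over the longest and the MANE transcript were 68.6 and 158 CPM for SLIRP, 21.5 and 33.4 for LRPPRC, and 11.6 and 15.7 for SRA1. They were 17.2 by either for SUPV3L1, 10.2 for MTPAP, 7.31 for POLRMT and 12.2 for FASTKD2, against lower values over all exons, since that length is greater.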
